A study of Rattus norvegicus with 96 samples.

Results

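The cytosolic ribosomal protein genes are described here across 8 brain regions of rats with and without a history of alcohol dependence. They were taken as every gene whose symbol in the array annotation is Rps or Rpl followed by a digit, or is Rpsa, Rplp0, Rplp1 or Rplp2. Rps6k kinases and pseudogene symbols were left out. Only probe sets that name 1 gene were used, and a gene with several is represented by the one with the highest mean. This gave 48 of 14218 genes, 33 of the large and 15 of the small ribosomal subunit. Signals are given on the log2 scale, where a difference of 1 is a factor of 2. Over the arrays used, 42 of the 48 had a mean above 4, the level below which genes were not tested. The other 6, Rpl30, Rpl39l1, Rpl3l, Rps13, Rps27l and Rps4y2, had means of 2.63 to 3.81. A further 36 probe sets name a ribosomal protein gene together with other loci and cannot be assigned to 1 gene. 27 ribosomal protein genes appear only there, among them Rpl10, Rps2, Rps14 and Rplp1.

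RNA was taken from the medial prefrontal cortex (mPFC), the core and shell of the nucleus accumbens (NAcC, NAcSh), the central and basolateral amygdala (CeA, BLA), the dorsolateral and ventral bed nucleus of the stria terminalis (dlBNST, vBNST) and the ventral tegmental area (VTA) of adult male Wistar rats. Nondependent rats had drunk 10% alcohol by lever pressing for 4 weeks, dependent rats had in addition been exposed to intermittent alcohol vapor for 4 weeks, and age-matched naive rats had received no alcohol. Both drinking groups were given access to alcohol again after the vapor phase, and tissue was collected 3 weeks after the vapor ended. Each region and group had 4 arrays, 96 in all, and 4 arrays were set aside: CeA nondependent 2, BLA nondependent 3, VTA nondependent 2 and vBNST dependent 1. On these the mean deviation of the ribosomal protein genes from their usual level was -5.11, -0.46, 0.66 and 0.52. It was -0.39 to 0.71 on the 92 arrays used, with the upper end from the mPFC. Used arrays of the same regions went down to -0.34 in the CeA and -0.39 in the BLA. They went up to 0.27 in the VTA and 0.01 in the vBNST. Hybridization controls of the arrays set aside averaged 14.31, 10.85, 12.45 and 11.81, against 7.44 to 10.42 on those used. Markers of cortex and BLA were higher in mPFC and in BLA (3 of 3 passed in each), accumbens markers in NAcC (6 of 6), VTA markers in VTA (4 of 4) and markers of central amygdala and BNST in CeA (3 of 4). Of all genes, 37.8%, 13.7%, 20.6%, 33.3% and 21.8% passed as higher in mPFC, BLA, NAcC, VTA and CeA. Marker counts of NAcSh, dlBNST and vBNST are not given here.

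Each ribosome joins a small subunit, which reads the mRNA, to a large subunit, which forms the peptide bond. The proteins of both are made in near equal numbers, and their mRNAs are among the most abundant of most cells, neurons and glia included. Many of these mRNAs begin with a C and a run of pyrimidines, the 5′ terminal oligopyrimidine tract, through which mTOR signaling and the RNA-binding protein Larp1 control their translation. An array measures mRNA level only, and in tissue punches fewer cells of a type and less RNA per cell cannot be told apart.

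The tract is visible at the annotated starts. Windows of 30 bases, 15 before the start and 15 from it on, are shown for 4 genes that differed most between regions (Rplp0, Rps24, Rps15, Rpl14), for Rps3a, which differed little, and for Rps3, the gene that passed the test between alcohol groups. They are RefSeq sequences of build GRCr8 on the strand of the gene, and capitals mark a C followed by at least 4 bases that are each C or T, where it begins within 5 bases of the start.
Rplp0 (chr12:46718376-46718405, minus strand): gaccgcaccgcaCTTCTCTCgccaggcgtc
Rps24 (chr16:96502-96531, plus strand): tgagcggtcctCTTTTCCTCCTTTacagct
Rps15 (chr7:10068101-10068130, minus strand): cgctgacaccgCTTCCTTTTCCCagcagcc
Rpl14 (chr8:129163605-129163634, plus strand): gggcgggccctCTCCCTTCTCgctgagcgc
Rps3a (chr2:173827028-173827057, minus strand): gagttgtacttccgCCCTTTTggctctcag
Rps3 (chr1:163195762-163195791, minus strand): ttcctttcagcggcgcgcggcagcaagatg
The tract began within 5 bases of the start in Rplp0, Rps24, Rps15, Rpl14 and Rps3a alike. Rps3 had none that near, but its window holds such a run further before the annotated start, left in small letters. Of the 43 ribosomal protein genes found in the promoter table, 22 had such a tract within 5 bases of the start on the gene's strand, 51.2% against 17.0% of all 33469 promoters. Exactly at the start it stood in 12 of 43, 27.9% against 2.63%. The search was for letters only, and a missing match says nothing about the factor or about starts that were not annotated.

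Among naive rats, most ribosomal protein genes differed between regions, with the mPFC highest for 25 of 42 and the VTA lowest for 18. In the limma F test over the 8 regions, 35 of 42 passed an adjusted p of 0.05, or 83.3%, against 96.6% of all genes tested. Their median F was 8.42, below the 16.6 of all genes. The means of the 8 regions spanned 0.66 for the median ribosomal protein gene and 1.34 for the median gene. By this description the median ribosomal protein gene varied less from region to region than the median gene. Without the mPFC, a setting added after seeing the data, 28 of 42 passed, with 89.3% of all genes passing, and the median range over the other 7 regions was 0.47 for the ribosomal protein genes and 0.87 for all genes.

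**Figure D1:**
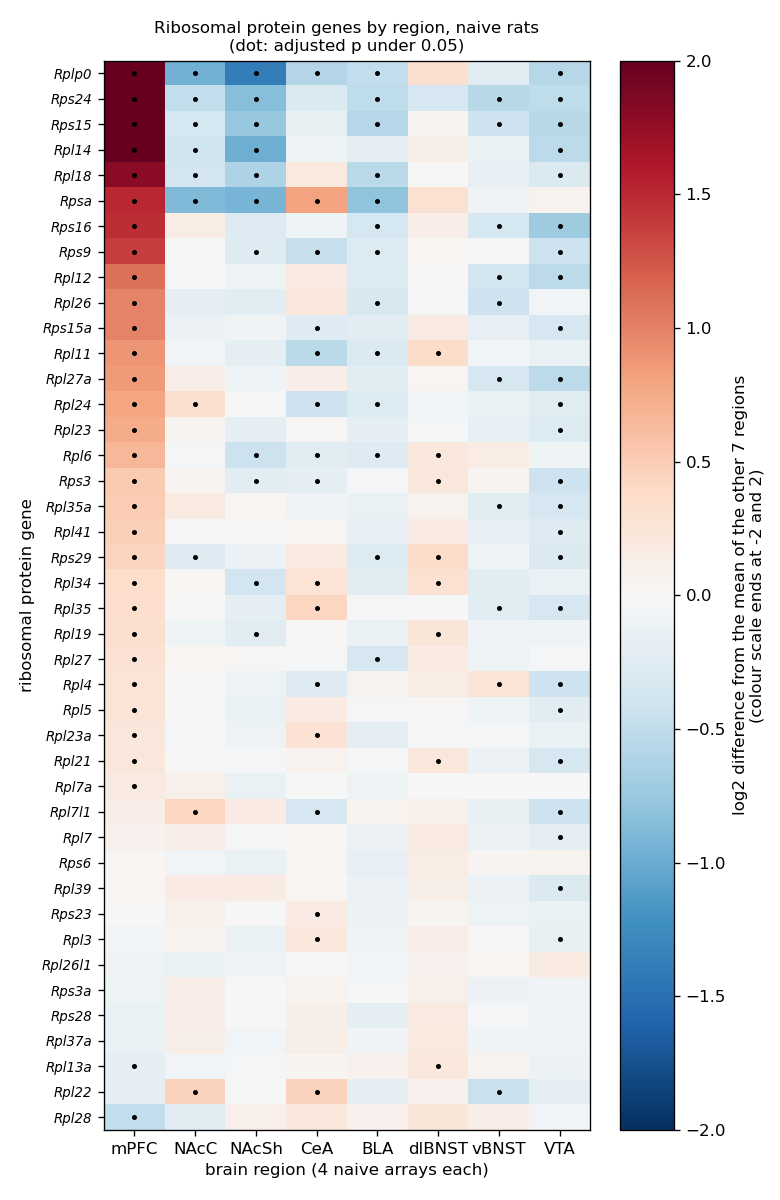
Log2 difference of each of 42 ribosomal protein genes (rows) in each region (columns, 4 naive arrays each) from the mean of the other 7 regions, red higher and blue lower, with a dot where the adjusted p is under 0.05. In the mPFC column 29 genes passed as higher and 2 as lower, and the colour scale ends at 2 while Rplp0 reached 3.91.

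In the mPFC, 34 of 42 genes had a higher value than the mean of the other regions. Of the 42, 29 passed as higher and 2 as lower, whereas 37.8% of all genes passed as higher and 43.0% as lower. The median difference was 0.34 for the ribosomal protein genes and -0.07 for all genes.  Small subunit genes had a median difference of 0.76 (8 of 12 passed as higher), large subunit genes one of 0.29 (20 of 29 passed as higher). These medians depend on the scaling of the arrays. When each array was set to the same median, the difference fell to 0.06 for the ribosomal protein genes and -0.36 for all genes, with 18 called higher and 12 lower. After quantile normalization it was 0.23 against -0.21, with 23 called higher and 9 lower. In both settings the ribosomal protein genes had a median above that of all genes. The share of all genes passing was not counted in these settings, so these counts cannot be set against it.

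Rplp0, the scaffold of the acidic stalk that recruits translation factors to the large subunit, had the largest difference. In naive mPFC its 4 signals were 12.21, 11.82, 12.45 and 12.38. The means in the other regions ran from 7.58 ± 0.08 (SD, n = 4) in the NAcSh to 9.07 ± 0.22 in the dlBNST, and the highest single naive array outside the mPFC read 9.38. The mPFC therefore did not overlap any other region, with a log2 difference of 3.91 ± 0.18 (SE, limma adjusted p = 6.26e-18).

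Rps24, a small subunit protein mutated in some patients with Diamond-Blackfan anemia, read 10.02, 9.80, 10.50 and 10.61 in naive mPFC. Elsewhere its means lay between 6.37 ± 0.25 and 6.87 ± 0.26, a difference of 3.56 ± 0.14 (adjusted p = 2.65e-19). Rps15, a small subunit protein needed for export of the subunit from the nucleus, read 7.87 to 8.19 in the mPFC and had means of 4.97 to 5.69 elsewhere (2.74 ± 0.13). Rpl14, a large subunit protein, read 10.36 to 11.43 against at most 9.18 on any other naive array (2.23 ± 0.13). All 4 genes were separate from every other region on each naive array. Rpl18 (1.81), Rpsa (1.5), Rps16 (1.47) and Rps9 (1.38) followed. Rpsa is also known as the laminin receptor.

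At the other end, Rps3a, a small subunit protein close to the mRNA exit, had naive means of 13.55 to 13.77 in the 8 regions and did not pass (F = 1.57, adjusted p = 0.188). Rpl7a ranged from 12.37 to 12.64 (adjusted p = 0.129). Rpl26l1, a paralog of Rpl26 with a mean signal of 4.35 just above the limit for testing, had the smallest F (0.76). Rps28, Rps6, Rpl13a and Rpl37a did not pass either. 2 genes passed as lower in the mPFC, Rpl28 (-0.50 ± 0.14), which is dim with a mean of 4.06, and Rpl13a (-0.19 ± 0.08). Differences between the mPFC and the other regions thus ran from -0.50 to 3.91 among genes of the same particle. Signal level differed between these genes too. Rplp0, Rps24, Rps15 and Rpl14 had means of 5.61 to 8.83 over the 92 arrays, and Rpl18, Rpsa, Rps16 and Rps9 of 10.45 to 11.55. Rps3a, Rpl7a, Rps28, Rps6, Rpl13a and Rpl37a had means of 11.66 to 14.02. The part of signal level in the differences was not tested.

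**Figure D2:**
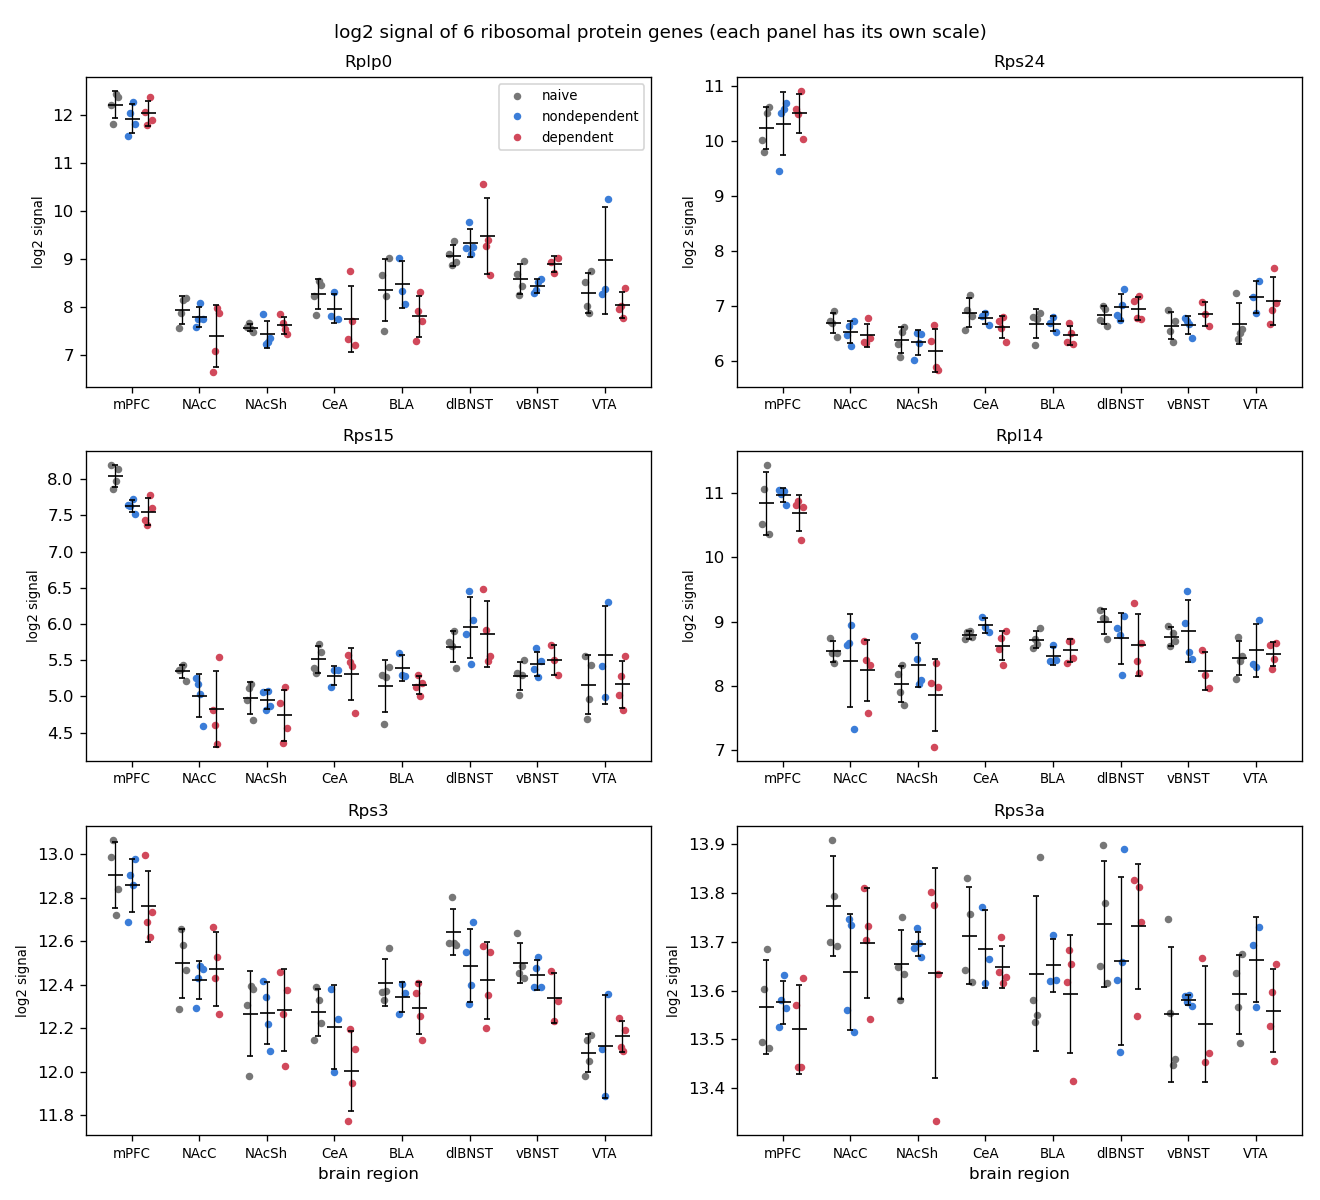
Log2 signal of Rplp0, Rps24, Rps15, Rpl14, Rps3 and Rps3a on each of the 92 arrays by region and alcohol group, with mean and SD as black bars, each panel on its own scale. The mPFC arrays of all 3 groups lie above every other array for Rplp0, Rps24, Rps15 and Rpl14, whereas the naive means of Rps3a differ by no more than the range from 13.55 to 13.77.

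The mPFC arrays also differed in control probe sets. The difference between the 3′ and 5′ Hexokinase control probe sets was 0.64 to 3.52 on the 12 mPFC arrays and -1.24 to 0.04 on the 80 others, and the 3′ Gapdh control read 12.77 to 13.59 against 9.43 to 11.71. The hybridization controls overlapped (9.13 to 10.27 and 7.44 to 10.42). RNA input was 30 or 50 ng depending on the region, without the region being named. Neuron markers passed as higher in the mPFC in 9 of 10 cases and as lower in 0 (all genes 37.8% and 43.0%). The part of these measures in the mPFC result was not tested.

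Probe sets of the same gene did not always give the same regional pattern. Of 6 genes with more than 1, Rpsa was higher in the mPFC on all 3 (1.16, 1.5 and 3.14), and Rpl7l1 on both (0.13 and 0.65). The second probe set of Rps24, with a mean of 5.49, was lower in the mPFC by contrast (-1.09, against 3.56 for the one used). The second of Rpl14 was dim (mean 3.23) and differed by -0.24. Rpl3 differed by -0.05 and -0.25, and Rpl7 by 0.09 on the one used and -0.19 on the other. For Rps24, Rpl14 and Rpl7 the direction therefore differs between probe sets. Among the probe sets that name several loci, 31 of 35 above the limit had a higher value in the mPFC, with a median of 0.58. Of the 35, 23 passed as higher and 3 as lower, down to -3.28 (all genes 37.8% and 43.0%). They may share transcripts with the genes above and are not independent of them.

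**Figure D3:**
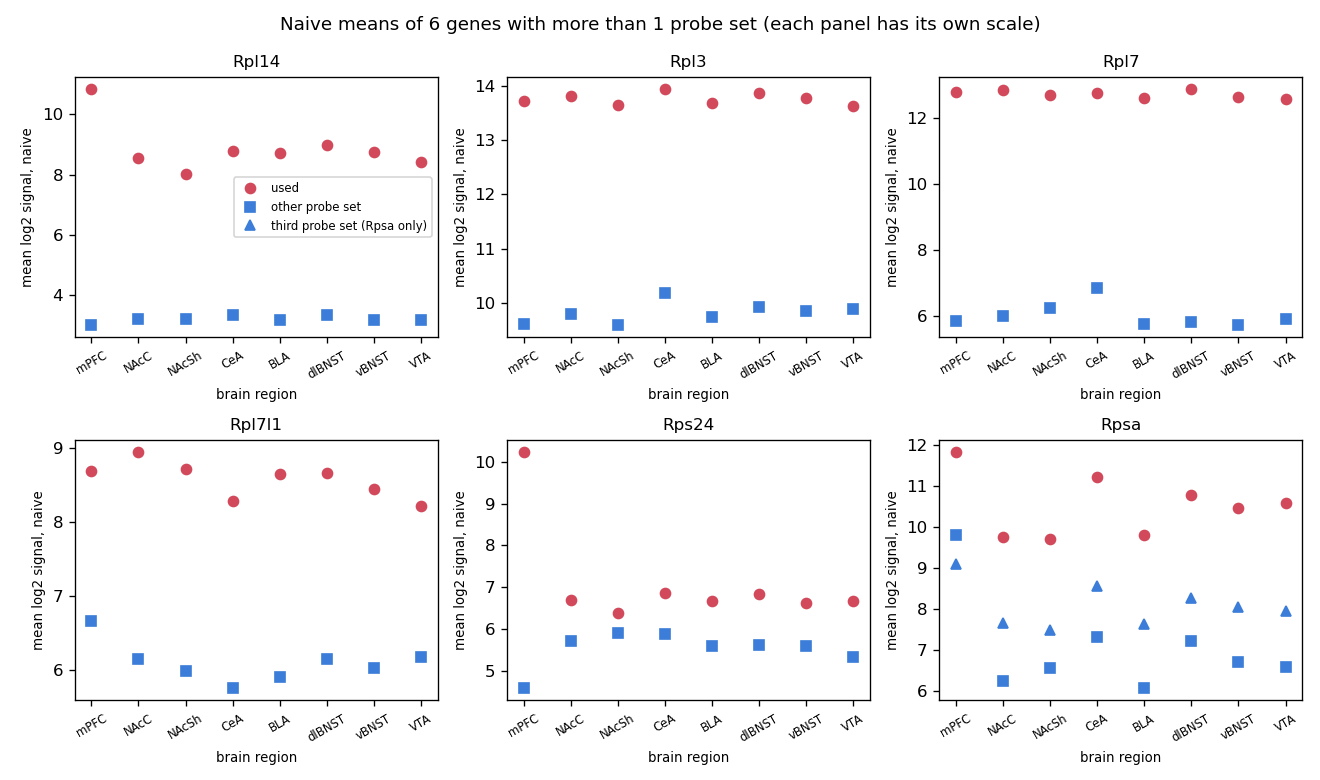
Mean log2 signal of 4 naive arrays by region for each probe set of the 6 genes that have more than 1, the probe set used in red and the others in blue, each panel on its own scale. The Rps24 probe sets go opposite ways in the mPFC (3.56 and -1.09 from the other regions), whereas all 3 of Rpsa are higher there.

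The other regions differed less, and since each was set against a mean that includes the mPFC, genes that are high in the mPFC lean towards lower elsewhere. In the VTA 39 of 42 genes had a lower value, and 24 passed as lower and 0 as higher (all genes 30.7% and 33.3%). Rps16 had the lowest value (-0.71 ± 0.13). Without naive replicate 3 the count in the VTA was 14. When the mPFC was left out, 14 of 42 passed as lower in the VTA, 13 of them among the 24, and 0 as higher, with 28.9% of all genes passing as lower. In that setting Rpl4 (-0.38) and Rps3 (-0.35), a small subunit protein with a second role in DNA repair, had the smallest p. The median difference of the VTA was -0.23 in the ribosomal protein genes, 0.22 in 70 mitochondrial ribosomal protein genes, of which 32 passed as higher and 4 as lower, and 0.02 in all genes. Oligodendrocyte markers were higher in the VTA (9 of 9, median 1.58), and their part in this was not tested.

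In the dlBNST 34 of 42 genes had a higher value, and 8 passed as higher and 0 as lower (all genes 20.7% and 11.6%), a share of higher genes close to that of all genes. Without the mPFC all 42 genes had a positive difference there, and 14 passed, 7 of them among the 8, with 21.0% of all genes passing as higher. Rplp0 (0.90 ± 0.18), Rpl19 (0.30 ± 0.06) and Rpl11 (0.50 ± 0.11), which binds the p53 regulator Mdm2 when not in the ribosome, had the smallest p in that setting. The count of 8 rested on all replicates, since leaving out naive replicate 1, 2, 3 or 4 gave 3, 3, 1 and 5.

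In the BLA 13 passed as lower and 0 as higher (all genes 21.9% and 13.7%), and in the NAcSh 11 and 0 (32.8% and 19.8%). In the vBNST 9 passed as lower and 1 as higher (19.2% and 28.9%), the latter being Rpl4 (0.26 ± 0.07). In the NAcC 7 passed as lower and 3 as higher (32.4% and 20.6%), and in the CeA 9 and 7 (22.6% and 21.8%). In the CeA both shares were close to those of all genes. Without naive replicate 1, 2 or 3 the BLA count was 8, 4 and 6, and without naive replicate 2 or 3 the vBNST count of lower genes was 5 and 2. The lower genes of the NAcC became 4 without naive replicate 1, 3 or 4, the lower genes of the CeA 5 without naive replicate 3, and its higher genes 4 without naive replicate 1, 2 or 3. With the mPFC left out, 2 passed as lower in the BLA, 2 in the vBNST and 1 in the NAcC. In the NAcSh 9 did and in the CeA 5. As higher, 0 passed in the BLA and NAcSh, 2 in the vBNST, 5 in the NAcC and 10 in the CeA. Among all 8690 genes, 1722, 1484, 2609, 2450 and 1575 passed as lower in the BLA, vBNST, NAcC, NAcSh and CeA. As higher, 1200, 2459, 1649, 1374 and 1530 passed in the same order.

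Single genes went their own way. Rpl22, a large subunit protein with a role in T cell development, was highest in the NAcC (12.02 ± 0.15) and the CeA (12.02 ± 0.10), which did not differ beyond their spread, and lowest in the vBNST (11.23 ± 0.11). Its differences from the other regions were 0.47, 0.46 and -0.44. Rpsa was high in the CeA (11.21, difference 0.80 ± 0.19) and low in the NAcC, NAcSh and BLA (9.69 to 9.81). Rpl7l1, a paralog of Rpl7 that takes part in ribosome assembly, was highest in the NAcC (8.95 ± 0.15) and lowest in the VTA (8.22 ± 0.36). Its partner Rpl7 spanned 12.58 to 12.89. Rpl39, which lines the exit tunnel of the large subunit, was dim at 4.85 to 5.24 in the 8 regions.

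The alcohol groups differed far less than the regions. Within regions, each of the 3 comparisons held 336 tests of a ribosomal protein gene over the 8 regions, and 0 passed in any (limma, adjusted p). Across all genes 0.0101% of the tests passed. An unadjusted p under 0.05 was found in 9 tests of nondependent against naive (2.68%, all genes 7.84%). In dependent against nondependent rats it was found in 8 (2.38%, all genes 7.17%) and in dependent against naive rats in 20 (5.95%, all genes 11.3%). The median SE of a difference was 0.10 to 0.15 on the log2 scale. Groups did not overlap in 13 of 336 tests of nondependent against naive (3.87%, all genes 6.24%), 11 of dependent against nondependent (3.27%, all genes 5.96%) and 13 of dependent against naive (3.87%, all genes 6.52%). By both counts the ribosomal protein genes stood below the share of all genes in each comparison. Within regions, the replicate SD of the median ribosomal protein gene was 0.12 to 0.20, below that of the median gene (0.19 to 0.23) in each region.

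The smallest p within a region belonged to Rps15 in the mPFC. Its signals were 8.19, 7.87, 7.98 and 8.14 in naive, 7.64, 7.63, 7.73 and 7.52 in nondependent and 7.43, 7.37, 7.79 and 7.61 in dependent rats. Both alcohol groups lay below all naive arrays and overlapped each other. The differences were -0.41 ± 0.12 (limma, adjusted p = 0.117) for nondependent and -0.50 ± 0.12 (adjusted p = 0.109) for dependent rats. With array weights both passed (adjusted p = 0.0375 and 0.0254), and without mPFC dependent replicate 3 the dependent rats did (adjusted p = 0.0146). The 3′ to 5′ Hexokinase difference of the mPFC arrays was also higher in naive rats, at 2.42 to 3.52 in naive, 0.64 to 1.60 in nondependent and 0.64 to 2.81 in dependent rats, and its part was not tested. Rps9 in the mPFC was 0.42 lower in nondependent than in naive rats on the log2 scale, also with no overlap (adjusted p = 0.139).

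Rplp0 in the VTA had the largest difference between dependent and nondependent rats within a region, -0.93. Nondependent arrays read 8.27, 8.39 and 10.26, and dependent arrays 7.96, 8.02, 7.77 and 8.41. The value rests on VTA nondependent 4, the array at 10.26, since the other 2 nondependent arrays lie within the dependent range. On that array the ribosomal protein genes as a whole were 0.27 above their usual level.

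**Figure D4:**
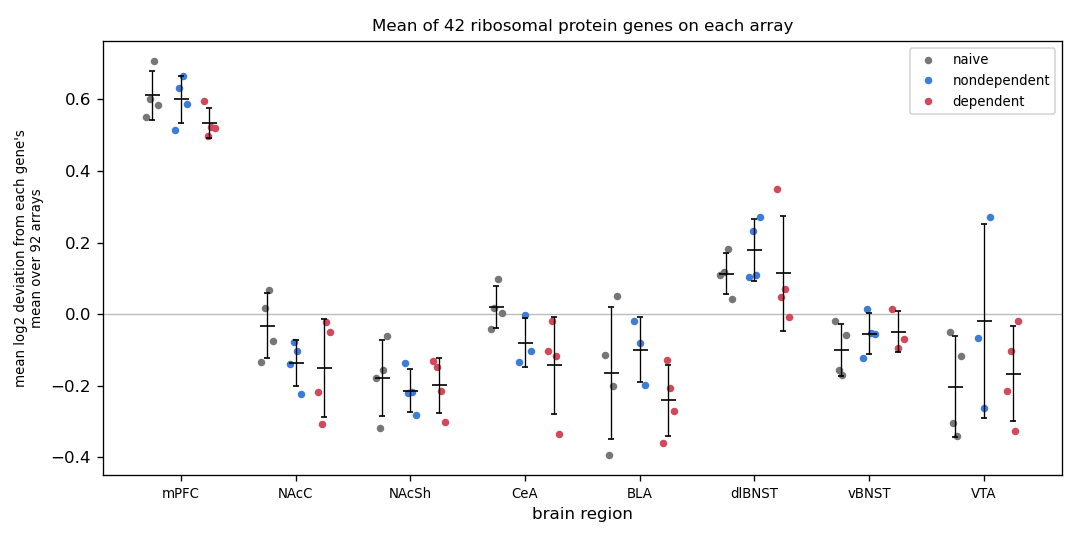
Mean log2 deviation of 42 ribosomal protein genes from each gene's mean over 92 arrays, 1 point per array, by region and alcohol group, with mean and SD as black bars. The 12 mPFC arrays lie between 0.50 and 0.71 and all others between -0.39 and 0.35, while the alcohol groups overlap in each region.

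Over all regions, 40 of 42 ribosomal protein genes had a lower value in dependent than in nondependent rats, but no gene passed the test. The fit took region as a covariate and the combination of group and replicate number as a random block, whose consensus correlation was -0.00947. At this value the arrays of a group counted nearly as independent. In the fit 0 of 42 passed, with 0.833% of all genes passing, and 5 of 42 had an unadjusted p under 0.05, 11.9% against 13.5% of all genes. The median difference was -0.05, and -0.01 for all genes, of which 5115 of 8762 were lower. All 12 small subunit genes, Rplp0 and 27 of the other 29 large subunit genes had a lower value. These genes share arrays and vary together, so their directions are not separate observations. With all 96 arrays the direction turned: 9 of 42 had a lower value and the median was 0.13. This brings back CeA nondependent 2, with a mean deviation of -5.11. The other arrays brought back were BLA nondependent 3 (-0.46), VTA nondependent 2 (0.66) and vBNST dependent 1 (0.52). Among the 35 probe sets that name several loci, 35 had a lower value in dependent than in nondependent rats (median -0.07) and 2 passed. In nondependent against naive rats 2 of them passed as higher, and in dependent against naive rats 1 as lower.

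Rpl12, which lies at the base of the stalk, had the smallest p (-0.21 ± 0.06, limma adjusted p = 0.083) and had a lower value in 8 of 8 regions, by -0.46 to 0.00. Rpl14 (-0.24 ± 0.08, adjusted p = 0.152) had a lower value in 7 of 8 regions. Rpl21 followed (-0.08 ± 0.03, adjusted p = 0.259). The 2 genes with a higher value were the dim Rpl28 (0.05 ± 0.06) and Rpl39 (0.03). By region, genes with a lower value were 38 of 42 in the BLA (median -0.13), 35 of 42 in the VTA (-0.10), 34 of 43 in the dlBNST, 30 of 43 in the CeA and 30 of 41 in the mPFC. In the vBNST, NAcC and NAcSh they were 21 of 42, 18 of 41 and 17 of 42. On VTA nondependent 1, 3 and 4 the mean deviation of the ribosomal protein genes was -0.07, -0.26 and 0.27. Dependent VTA arrays ran from -0.33 to -0.02, so only VTA nondependent 4 lay above their range. Over all regions, oligodendrocyte markers had a lower value in 9 of 9 and neuron markers in 7 of 10 cases in this comparison. Their part was not tested. In the interaction test 0 of 42 passed and 3, Rps9, Rpl24 and Rps16, had an unadjusted p under 0.05 (7.14%), with 2.35% of all genes passing and 16.9% under the unadjusted limit.

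**Figure D5:**
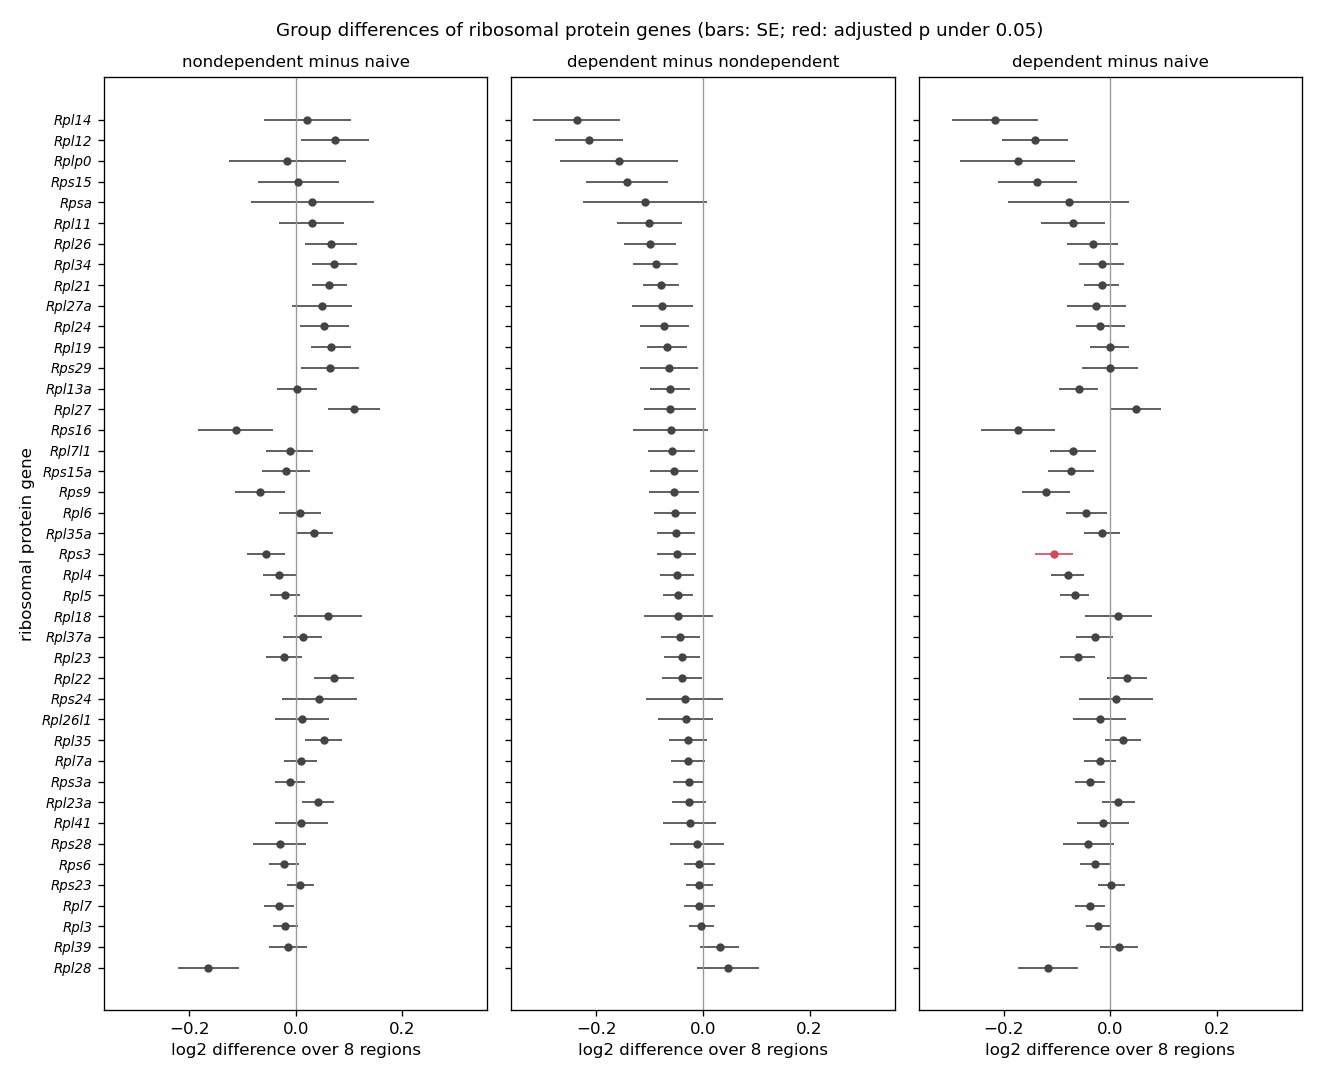
Log2 difference over 8 regions with SE for each of 42 ribosomal protein genes in the 3 comparisons of alcohol groups, ordered by dependent minus nondependent, with adjusted p under 0.05 in red. In the middle panel 40 of 42 points lie below 0, and Rps3 in dependent minus naive (-0.11) is the 1 point that passed.

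Dependent rats differed from naive rats in 1 of 42 ribosomal protein genes, Rps3, while 13.5% of all genes passed. An unadjusted p under 0.05 was found in 8 of 42, against 29.1% of all genes. Rps3 was lower by -0.11 ± 0.04 (limma adjusted p = 0.0355), and in 6 of 8 regions. In the CeA, where the difference was largest (-0.27), naive arrays read 12.15, 12.39, 12.33 and 12.23 and dependent arrays 11.77, 12.19, 11.95 and 12.10, so the groups overlapped. In the dlBNST (-0.22) naive arrays read 12.59, 12.80, 12.59 and 12.59 and dependent arrays 12.58, 12.20, 12.35 and 12.55, without overlap. The call was lost without the mPFC, without naive replicate 2 or 4, without dependent replicate 2, 3 or 4, under both other scalings and with all 96 arrays. Rpl14 (-0.22 ± 0.08, adjusted p = 0.0584) and Rps9 (-0.12 ± 0.05, adjusted p = 0.0615) came next. The median difference was -0.03 both for the ribosomal protein genes and for all genes, and 33 of 42 had a lower value. The genes with a positive value and the smallest p were Rpl27 (0.05), Rpl22 (0.03) and Rpl35 (0.02).

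Nondependent and naive rats differed in 0 of 42 genes, with 2.84% of all genes passing, and 2 had an unadjusted p under 0.05 (4.76%, all genes 18.5%). The median was 0.01, and 26 of 42 had a higher value. The smallest p were those of the dim Rpl28 (-0.16 ± 0.06, adjusted p = 0.0915) and of Rpl27 (0.11 ± 0.05, adjusted p = 0.196). Without naive replicate 3 Rpl28 passed (-0.21, adjusted p = 0.0307). The 3 comparisons share their arrays in pairs, so a gene that is high in nondependent rats leans towards higher in one and lower in another.

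After the mean of each region and group was removed, the correlation of a gene with the mean of the other 41 over 92 arrays had a median of 0.60, and 27 of 42 genes were above 0.5. All values of an array share its labeling and scaling. Rpl27a (0.88), Rpl11 (0.85) and Rpl12 (0.82) were highest. Rpl28 (-0.31), Rpl7l1 (-0.01) and Rpl26l1 (0.13) were lowest, and of these Rpl28 and Rpl26l1 were dim.

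Other parts of the translation machinery were set beside them. Of 70 mitochondrial ribosomal protein genes, whose products translate mRNAs of the mitochondrial genome, 65 had a lower value in dependent than in nondependent rats (median -0.07). Of the 70, 1 passed, Mrpl50 (-0.41, limma adjusted p = 0.0168), with 0.833% of all genes passing. Against naive rats 59 of 70 had a lower value, and 11 passed as lower, with Mrpl44 (-0.22) and Mrps27 (-0.24) at the smallest p. Translation factors passed in 8 of 45 cases between dependent and naive rats, 2 higher and 6 lower. Both counts against naive rats stand beside 13.5% of all genes that passed in that comparison. Eef2k, the kinase that inhibits elongation factor 2, rose by 0.48 ± 0.10 (adjusted p = 0.000547), and Eif2s3, a subunit of initiation factor 2, fell by 0.19 on the log2 scale (adjusted p = 0.000932).

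Of 69 ribosome biogenesis factors, 1 fell in dependent against nondependent rats, Ncl (nucleolin), by 0.46 on the log2 scale (limma adjusted p = 0.0379). Of all genes, 0.833% passed there. Against naive rats 2 passed as higher and 4 as lower, with Exosc5 (-0.18) and Nop58 (0.12) at the smallest p. Of all genes, 13.5% passed against naive rats. Among 28 mTOR signaling genes, 0 passed between dependent and nondependent rats, and 3 had an unadjusted p under 0.05 (all genes 13.5%). Ddit4, an inhibitor of mTOR, had the smallest p (-0.47 ± 0.14, limma adjusted p = 0.0861). Against naive rats, where 13.5% of all genes passed, 1 of the 28 passed as higher and 1 as lower. These were Tsc1 (0.11, limma adjusted p = 0.00582) and Nprl2 (-0.19, adjusted p = 0.0195). Rack1, a scaffold on the small subunit that the symbol rule does not cover, had a value of -0.08 ± 0.04 between dependent and nondependent rats (adjusted p = 0.316).

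Of the marker lists, oligodendrocyte markers had a lower value in dependent than in naive rats in 9 of 9 genes, of which 4 passed (median -0.20), and 3 of 10 neuron markers passed as lower. Of all genes, 13.5% passed in this comparison. Of 5 microglia markers 4 had a lower value and 1 passed as lower, and of 6 accumbens markers 1 passed as higher. In astrocyte and endothelial markers 0 of 9 and 0 of 6 passed (limma), with an unadjusted p under 0.05 in 2 and 0 (all genes 29.1%). Oligodendrocyte markers had a lower value in nondependent than in naive rats too, in 9 of 9 genes (median -0.15). Of these 0 passed, with 3 at an unadjusted p under 0.05 (all genes 18.5%). In the same comparison 1 of 2 blood cell genes passed as higher (limma adjusted p = 0.00285), with 2.84% of all genes passing. Between dependent and nondependent rats 0 of 9 oligodendrocyte and 0 of 10 neuron markers passed. Their part in the values of the ribosomal protein genes was not tested.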

How the data were processed

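The deposited log2 signals come from Affymetrix rat arrays and were computed by the authors with GCRMA 2.36.0 under R 3.03, per the submitters' processing notes. Of 31099 probe sets, 20832 name 1 gene in the array annotation, 436 several and 9831 none. RNA had been amplified from 30 or 50 ng before labeling, and the number of arrays limits the precision. Group differences were fitted with limma 3.58.1 in R 4.3.3, per region and over all regions (group and replicate number as random block, consensus correlation -0.00947), and naive regions with an F test and contrasts. Genes with a mean above 4 were tested and p-values adjusted by Benjamini-Hochberg over all of them, with a threshold of 0.05. The study used 4 rats per group, but the labels do not tie numbers to rats, and arrays of 1 rat in several regions may not be independent.

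The members and lists were chosen with earlier results of these data known. Named are genes past the threshold, those with the smallest p per direction over all regions, the largest and smallest F and region contrasts, paralogs, the 3 most and least like the other members, and up to 2 genes of each other list. Rps15, Rps9 and Rplp0 within regions, and genes named from fits without the mPFC, were chosen after their values were seen. Symbols with -ps and a number (Rpl37-ps2, Rps4x-ps1) were counted as pseudogenes. The RefSeq promoter table held 43 members, 41 of them matched by gene identifier. Fits were tested on simulated data. Alternatives were the filter, scaling, probe set choice, array weights, the arrays used, a replicate block and leaving out replicates.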

Additional observations from a re-analysis of the deposited data

Results flagged for a closer look

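In groups of 4 arrays, 180 sets of values were examined for 1 array far from the other 3 (the mean deviation and 8 genes). Of these 6 stood out, a smaller share than the about 1 in 20 that chance gives. They are listed as a description only. Rps24 read 9.46 on mPFC nondependent 1, where the others read 10.51 to 10.70, and 6.78 on NAcC dependent 3, where the others read 6.33 to 6.40. Rpl14 read 10.27 on mPFC dependent 3 (others 10.78 to 10.89). Rps3 read 12.57 on BLA naive 4 (others 12.33 to 12.37) and 12.80 on dlBNST naive 2 (others 12.59 on all). Rpl12 read 9.67 on CeA dependent 4 (others 10.64 to 10.82). The groups with 3 arrays were not examined.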

How the results depend on the processing

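Between nondependent and dependent rats no alternative called any of the 42 ribosomal protein genes over all regions, leaving out each group and number in turn included. The count called between naive and dependent rats was 1, and became 0 under quantile normalization, equal array medians, all 96 arrays and without the mPFC (the last chosen after seeing the data), and 5 with array weights. Leaving out 1 group and number gave 0 to 4. Array weights gave 2 calls within regions and 3 in the interaction of region and group (Rpl24, Rps15a, Rps16), where the main counts were 0. The cause was not tested. The share of all genes called with array weights was not counted, here or over all regions. Whether these counts are particular to the ribosomal protein genes therefore cannot be read from them. With all 96 arrays, which bring back the arrays set aside, the median from nondependent to dependent rats was 0.13 and 9 of 42 genes were lower. In the mPFC of naive rats, Rpl4 turned to -0.0232 with equal array medians. Leaving out arrays gave 0 to 1 calls within regions, 0 to 1 between naive and nondependent rats, 35 to 40 genes lower from nondependent to dependent rats, and 27 to 34 genes differing between naive regions. Same-numbered arrays of different groups in a region did not deviate together (median correlations of -0.03 to 0.07). Nor did same-numbered arrays of different regions in a group (-0.03 to 0.02). With the replicate number as a block, Rps3 stayed at -0.10 (limma adjusted p = 0.0484) and the median from nondependent to dependent rats was -0.05. Among the results listed the block changed 1 call, that of Rpl22 in naive mPFC (-0.19), which then passed. Rpl22 passed there in 5 of the 7 alternatives, the block included. Its difference ran from -0.48 to -0.19 over the 7.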
